A study of Mus musculus with 6 samples.

Results

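MicroRNA genes are transcribed as long primary transcripts that fold into hairpins, and this report describes how many of these hairpin loci were seen in poly(A) RNA of the mouse retina and how their levels compared when Dicer1 was deleted in rods. The deposited table lists 22731 gene symbols with their RPKM, reads scaled to the length of the gene model and to the depth of the library. Of these, 615 symbols begin with Mir and a digit or with Mirlet, and 95 of the 615 averaged 0.5 RPKM or more across the 6 columns and were taken as members. Another 173 had reads but stayed under that mean, and 347 were at 0 in all 6 libraries. The members were thus chosen by their level, and the level itself is given here only as a description. One member, Mir17hg, is not a hairpin: its values fit a model of 2339 bp, that of the host transcript of the Mir17 group. This leaves 94 hairpin loci, with lengths from 65 to 120 bp (median of all members 83 bp, against 2830 bp for all 13663 genes tested).

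The libraries came from whole retinas of 2 groups of littermates, 3 libraries each. The conditional knockouts (cKO replicates 2, 3 and 4) were Dicerfl/fl, iCre75+, and the controls (replicates 1, 2 and 3) were Dicerfl/fl, iCre75-. Both groups therefore carried floxed Dicer1 on a Mixed C57BL/6J - SJL background, and only the first carried the transgene, which drives Cre recombinase in rods. Retinal cells other than rods are not targeted by it and keep their Dicer1. Each library pooled RNA of 4 mice at 4 weeks of age, so the spread given below is that between pools. Values are listed throughout in the order cKO replicates 2, 3 and 4, then control replicates 1, 2 and 3.

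In the nucleus the enzyme Drosha, with its partner Dgcr8, cuts the hairpin out of the primary transcript. Exportin 5 carries the hairpin to the cytoplasm, and Dicer1 cuts off its loop to leave the mature microRNA, which an Argonaute protein then holds. The seed, bases 2 to 8 of the mature strand, pairs with target messenger RNAs. Hairpins and mature microRNAs carry no poly(A) tail, whereas primary transcripts and the messenger RNAs that host many hairpins do. The cluster of Mir183, Mir96 and Mir182 is known for its high level in photoreceptors and other sensory cells, miR-124 and miR-9 for theirs in neurons, and let-7 for its rise as tissues mature.

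Of the 95 members, 87 had a hairpin in RefSeq (GRCm38.p6), and 85 of these had annotated mature strands, 146 in all. The read numbers worked back from the deposited values gave a length for each of the 87 that equalled the RefSeq hairpin, which is in part built in, since RefSeq hairpin lengths set the scale of the reads. The other members were Mir124a-2, Mir17hg, Mir1938, Mir1940, Mir1949, Mir320, Mir5109 and Mir99b. A seed was shared by more than 1 locus in 6 cases, which took in 18 loci. Seeds are in capitals below. The largest such group was let-7, whose 8 loci all hold the seed GAGGUAG in the 5p strand; they are shown because their values can be summed as 1 family.
mmu-let-7a-5p: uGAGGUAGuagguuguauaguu
mmu-let-7b-5p: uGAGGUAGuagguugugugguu
mmu-let-7c-5p: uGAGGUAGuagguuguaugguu
mmu-let-7d-5p: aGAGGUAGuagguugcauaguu
mmu-let-7e-5p: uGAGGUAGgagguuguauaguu
mmu-let-7f-5p: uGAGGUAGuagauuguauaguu
mmu-let-7g-5p: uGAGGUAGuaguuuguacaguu
mmu-let-7i-5p: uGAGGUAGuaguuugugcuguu

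The photoreceptor cluster lies at chr6:30165918-30169737 on the minus strand of GRCm38, a span of 3820 bp. None of the cluster's 3 hairpins overlaps a gene of GENCODE M21, with small RNA genes and entries of unconfirmed class left aside. Its 3 seeds are close but not the same. Those of miR-182-5p and miR-96-5p are identical over the first 6 of 7 bases, those of miR-96-5p and miR-183-5p at 6 of 7 positions, and those of miR-182-5p and miR-183-5p at 5 of 7.
mmu-miR-182-5p: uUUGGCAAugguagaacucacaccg
mmu-miR-96-5p: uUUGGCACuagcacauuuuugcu
mmu-miR-183-5p: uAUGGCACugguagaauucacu

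The 4 loci Mir17, Mir20a, Mir93 and Mir106b, from a pair of clusters on different chromosomes, share the seed AAAGUGC, and Mir132 and Mir212, neighbours on chromosome 11, share AACAGUC in their 3p strands. The strand of miR-9 is given with them because its locus Mir9-2 was one of the few whose groups did not overlap.
mmu-miR-17-5p: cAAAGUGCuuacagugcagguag
mmu-miR-20a-5p: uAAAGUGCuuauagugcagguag
mmu-miR-93-5p: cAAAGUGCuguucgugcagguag
mmu-miR-106b-5p: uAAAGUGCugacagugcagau
mmu-miR-132-3p: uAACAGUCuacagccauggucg
mmu-miR-212-3p: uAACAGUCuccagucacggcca
mmu-miR-9-5p: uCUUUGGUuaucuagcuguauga

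The loci with the most reads were not those best known in the retina but Mir3064 and Mir1968. Their hairpins follow, with the annotated mature strands in capitals. Mir3064 lies at chr11:106782693-106782759 on the minus strand, and Mir1968 at chr8:13189031-13189098 on the minus strand.
Mir3064: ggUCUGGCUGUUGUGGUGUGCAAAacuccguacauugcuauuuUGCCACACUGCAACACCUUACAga
Mir1968: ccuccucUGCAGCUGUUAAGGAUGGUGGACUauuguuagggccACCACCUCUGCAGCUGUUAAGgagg

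All values on these short loci rest on few reads. The 6 libraries held between 12336599 and 32935029 reads in genes, and 1 read on an 80 bp locus was worth between 0.308 and 0.826 RPKM. The 95 members together held 5803 reads, from 558 in cKO replicate 4 to 1245 in control replicate 2. A member had between 5 and 1128 reads over all 6 libraries, with a median of 23, and 23 members reached a mean of 10 reads per library. Reads were present in every library for 61 members, and 34 were at 0 in at least 1 library. The shallowest library, cKO replicate 4, had 15 members at 0, and the deepest, control replicate 3, had 3. The protocol keeps no strand, so reads of genes that overlap on opposite strands cannot be told apart, and how a read that falls in both a locus and an exon of its host was assigned is not given in the sources used here.

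Mean levels ran from 0.506 to 90.4 RPKM with a median of 1.47. Only 4 members reached 10 RPKM, 57 lay between 1 and 10, and 34 lay under 1. The 3 members just above the floor were Mir453, Mir194-1 and Mir1940 at means of 0.525, 0.515 and 0.506 RPKM. The 3 loci just below it were Mir709, Mir150 and Mir30d at 0.493, 0.485 and 0.466 RPKM, so the floor does not mark a gap in the levels. A locus this low passes on a handful of reads: Mir453 had 7 and Mir194-1 had 8 over all 6 libraries.

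Mir3064 read 61.5, 78.7 and 116 RPKM in cKO and 114, 90.4 and 81.0 RPKM in control libraries. These values rest on 101, 189 and 118 reads and on 264, 236 and 220 reads in turn. The groups overlapped over nearly their whole range (85.5 ± 28.1 against 95.3 ± 17.2 RPKM, SD, n = 3 each), and the log2 fold change, on log2(RPKM + 0.5) as for all such values below, was −0.19 ± 0.23 (SE; limma adjusted p = 0.993). Its reads also varied within groups beyond sampling noise; their chi-square, divided by its degrees of freedom, was 9.77, the highest of the members. The locus lies inside an exon of 3 of the 9 annotated transcripts of Ddx5, which encodes an RNA helicase that works with Drosha on primary microRNA transcripts. Ddx5 itself stood at 137 ± 26.4 RPKM in cKO and 131 ± 6.95 RPKM in control retinas, so per length the hairpin held 67.3% of the host's mean level. cKO replicate 4 had the highest value of both, and cKO replicate 2 the lowest of both.

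Mir1968 was the next highest and was steadier in the cKO libraries than in the controls. Its values were 45.0, 42.3 and 42.8 RPKM in cKO and 23.1, 41.5 and 22.5 RPKM in control retinas, from 75, 103 and 44 and 54, 110 and 62 reads. All 3 cKO values lay above all 3 control values, but control replicate 2 came close to the lowest cKO library. The means were 43.3 ± 1.45 and 29.0 ± 10.8 RPKM (SD, n = 3 each), with a log2 fold change of 0.63 ± 0.22 (SE; limma adjusted p = 0.809), which did not pass. Leaving out each library in turn took the log2 fold change from 0.48 to 0.91. The highest of these was that without control replicate 2, with a limma adjusted p of 0.151. Pooled over each group, 222 reads gave 43.2 RPKM (95% exact Poisson interval 37.7 to 49.3) in cKO and 226 reads gave 29.2 RPKM (25.5 to 33.2) in control libraries; these intervals cover counting error only. The hairpin lies in an intron of Grtp1, whose product is named as a growth hormone regulated TBC protein, and Grtp1 stood at 113 ± 16.1 against 104 ± 12.7 RPKM.

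**Figure D1:**
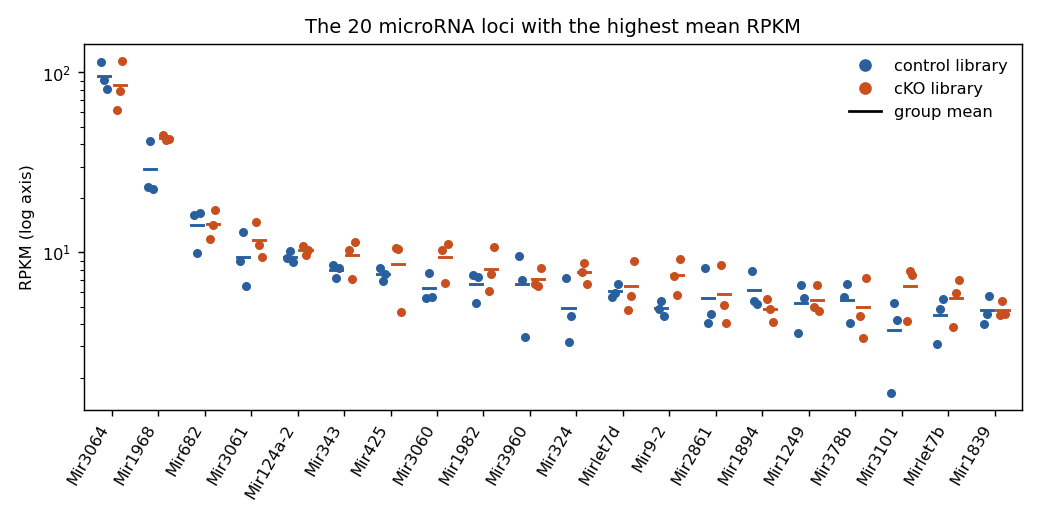
RPKM on a log axis for the 20 microRNA loci with the highest mean, ordered by that mean; points are single libraries (control blue, cKO orange, 3 each) and short lines are group means. Mir3064 and Mir1968 stand apart from the others, only 4 loci reach a mean of 10 RPKM, and for most loci the points of both groups overlap.

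In none of the other 8 of the 10 highest loci were the groups apart. Mir682, inside a processed pseudogene (Gm4149), had 11.9, 14.2 and 17.2 RPKM in cKO and 16.0, 9.89 and 16.5 RPKM in control libraries. Mir3061, in an exon of 1 of 2 transcripts of the phosphatase subunit gene Ppp2ca, had means of 11.8 ± 2.75 and 9.47 ± 3.26 RPKM (SD, n = 3 each). Both sets of values overlapped. Mir343, Mir425, Mir1982 and Mir3960 also overlapped, with log2 fold changes between 0.09 and 0.25 and limma adjusted p-values of at least 0.955. Mir3060, in an intron of Rnf215, was 10.3, 6.72 and 11.1 RPKM in cKO against 5.60, 7.73 and 5.65 RPKM in control libraries, a log2 fold change of 0.52 ± 0.20 (limma adjusted p = 0.818). Here the second cKO library lay below the second control library, so the groups were not separate.

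Mir124a-2, one of the loci of the neuronal miR-124, was the steadiest of the abundant members. It had 10.9, 9.73 and 10.3 RPKM in cKO and 9.33, 10.1 and 8.83 RPKM in control libraries, from 29, 38 and 17 and 35, 43 and 39 reads. It differed by 0.12 ± 0.08 on the log2 scale (SE; limma adjusted p = 0.950), and its reads varied less within groups than sampling alone gives on average, at a chi-square of 0.147 per degree of freedom. Leaving out each library in turn kept the log2 fold change between 0.08 and 0.17. The table lists 2 further loci of this microRNA: Mir124a-1 was at 0 in all 6 libraries, and Mir124a-3 had 4 reads in all, at a mean of 0.334 RPKM.

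The photoreceptor cluster was present in both groups at a low level. Mir182 had 8.16, 4.46 and 1.76 RPKM in cKO and 2.32, 4.10 and 1.97 RPKM in control libraries, from 15, 12 and 2 and 6, 12 and 6 reads. Mir96 had 1.54, 1.05 and 1.87 RPKM in cKO and 1.37, 4.11 and 2.33 RPKM in control libraries. Mir183 had 1.17, 0.797 and 0 RPKM and 1.24, 1.83 and 0.705 RPKM. The highest Mir182 value was that of cKO replicate 2, and the highest Mir96 and Mir183 values were those of control replicate 2, so the highest library was not the same for the 3 hairpins. Whether the hairpins differ from each other was not tested. Their log2 fold changes were 0.53 ± 0.45, −0.57 ± 0.31 and −0.73 ± 0.44 (SE), with limma adjusted p-values of 0.969, 0.912 and 0.929. Leaving out each library in turn took that of Mir182 from 0.076 to 1.04 and that of Mir183 from −1.08 to −0.21. Summed over the cluster, the cKO libraries had 10.9, 6.31 and 3.63 RPKM and the control libraries 4.94, 10.1 and 5.01 RPKM, or 6.94 ± 3.65 against 6.67 ± 2.93 RPKM (SD, n = 3 each) from 44 and 66 reads. A difference between the groups was thus not detectable at this depth. In whole retina, fewer cells of a type and less RNA per cell cannot be told apart.

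The let-7 loci gave a firmer value because there were 8 of them. Summed, they held 16.6, 21.8 and 24.0 RPKM in cKO and 16.1, 20.1 and 19.3 RPKM in control libraries, or 20.8 ± 3.77 against 18.5 ± 2.12 RPKM (SD, n = 3 each) from 144 and 198 reads. The lowest cKO sum lay among the control sums, and the groups overlapped. Of the 8 loci, 6 had a log2 fold change above 0 and 2 below, with a median of 0.10. Mirlet7d was the highest at 6.47 ± 2.22 against 6.11 ± 0.546 RPKM, and Mirlet7b came next at 5.58 ± 1.61 against 4.47 ± 1.26 RPKM. Mirlet7a-1 had 1.30, 0.890 and 0.703 RPKM in cKO against 0.618, 0.546 and 0.525 RPKM in control libraries, with no overlap, but on 7 and 6 reads (log2 fold change 0.44 ± 0.15, limma adjusted p = 0.809). Mirlet7g went the other way with 0.665 ± 0.314 against 1.21 ± 0.324 RPKM (log2 fold change −0.57 ± 0.23, limma adjusted p = 0.836). Mirlet7a-1, Mirlet7f-1 and Mirlet7d lie within 2261 bp of each other on chromosome 13 and in exons of 1 lincRNA, 6720427I07Rik, and had log2 fold changes of 0.44, −0.03 and 0.03.

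Mir9-2 was higher in cKO than in control retinas in every pairing of libraries. Its values were 7.36, 5.81 and 9.18 RPKM in cKO and 4.84, 5.34 and 4.46 RPKM in control libraries, from 13, 15 and 10 and 12, 15 and 13 reads. The lowest cKO library lay just above the highest control library. The means were 7.45 ± 1.69 and 4.88 ± 0.446 RPKM, with a log2 fold change of 0.55 ± 0.15 (SE; limma adjusted p = 0.706), and the pooled intervals overlapped, at 6.99 RPKM (95% exact Poisson interval 4.95 to 9.60) and 4.88 RPKM (3.48 to 6.64). The hairpin lies in an exon of the lincRNA C130071C03Rik, and per length it stood at 681% of that host, which had 0.920 ± 0.183 and 0.891 ± 0.102 RPKM.

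The loci of the Mir17 group and of Mcm7 had few reads each. Mir17hg, the primary transcript itself, gave the most precise value, since its length brought 46, 61 and 46 reads in cKO and 83, 82 and 96 reads in control libraries. It stood at 0.943 ± 0.311 against 0.981 ± 0.0712 RPKM, a log2 fold change of −0.06 ± 0.15 (limma adjusted p = 0.997). Its hairpins had few reads, and whether they differ from it was not tested. Mir17 had 1.46, 0.664 and 1.57 RPKM in cKO and 0.346, 0.305 and 0.294 RPKM in control libraries, with no overlap, from 7 and 3 reads (log2 fold change 1.04 ± 0.21, limma adjusted p = 0.506). Mir18 and Mir20a, from the same transcript, had log2 fold changes of −0.70 and −0.95. In Mcm7, which encodes a subunit of the replicative helicase, Mir25 had a log2 fold change of 0.54, and Mir93 and Mir106b had −0.53 and −0.65. Of the 4 loci that share the seed AAAGUGC, 1 was higher and 3 were lower, and their sums were 3.79 ± 0.564 RPKM in cKO and 4.23 ± 1.42 RPKM in control retinas.

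Mir132 and Mir212, which are known for their response to neuronal activity, were both lower on average in cKO. Mir132 had 0.618, 0 and 4.01 RPKM in cKO and 3.08, 1.94 and 1.50 RPKM in control libraries. Mir212 had 1.34, 0.307 and 1.45 RPKM in cKO and 2.55, 1.13 and 2.17 RPKM in control libraries. Their sums were 1.96, 0.307 and 5.46 RPKM against 5.63, 3.07 and 3.67 RPKM, from 11 and 36 reads, and cKO replicate 4 lay inside the control range. Log2 fold changes were −0.93 ± 0.69 and −0.73 ± 0.36 (SE), with limma adjusted p-values of 0.958 and 0.893.

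**Figure D2:**
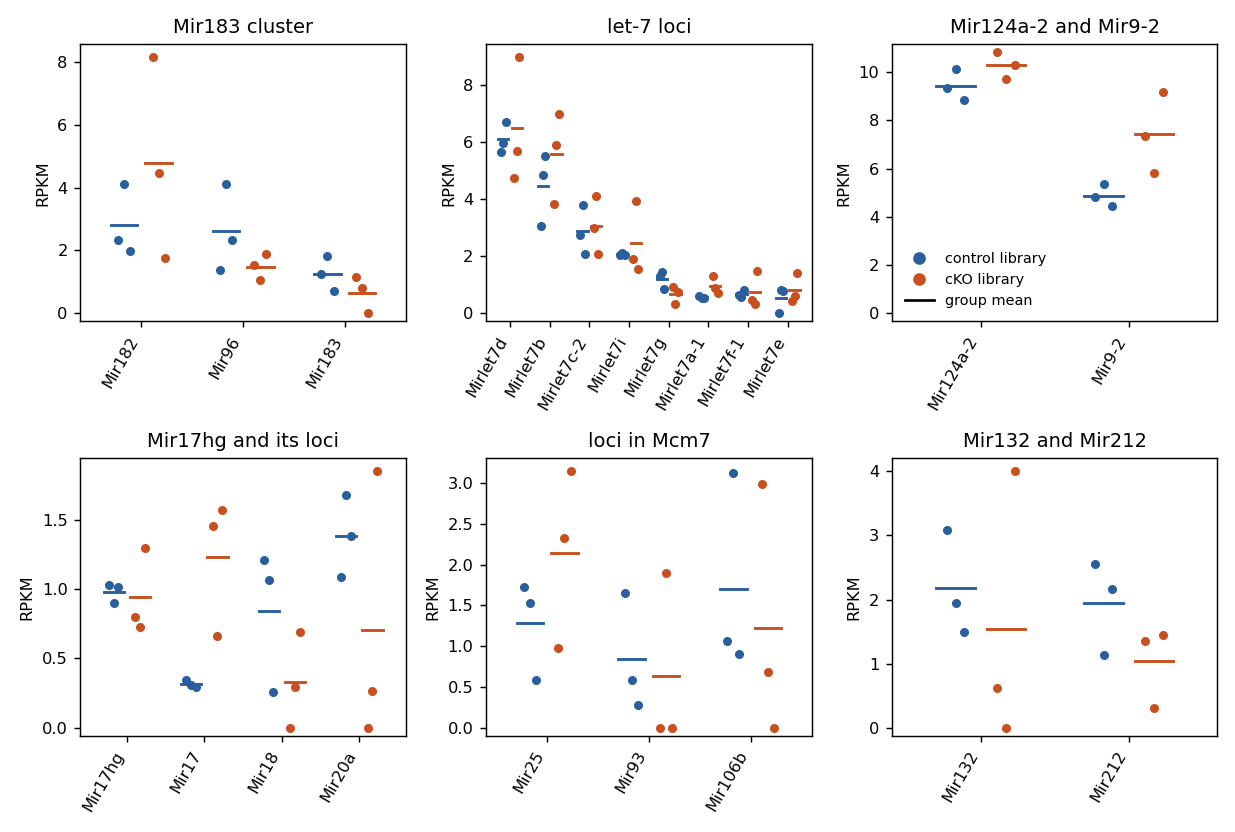
RPKM in each library for loci that share a seed, a cluster or a host: the cluster of Mir183, Mir96 and Mir182, the let-7 loci, Mir124a-2 and Mir9-2, Mir17hg with its hairpins, the loci in Mcm7, and Mir132 with Mir212; points are libraries (control blue, cKO orange, 3 each) and lines are group means. Mir9-2, Mir17 and Mirlet7a-1 have no overlap between groups, while Mir182 spans 1.76 to 8.16 RPKM within the cKO group alone.

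Most of the loci on distal chromosome 12 lie in the noncoding transcripts Mirg and Rian. Of the 8 members in Mirg and Rian, 4 were higher and 4 lower. Mir485 had 0, 0.382 and 0 RPKM in cKO and 0.796, 0.703 and 1.35 RPKM in control libraries, on 1 and 8 reads, and Mir453 had 0.995, 0.680 and 0.806 RPKM against 0.354, 0.313 and 0 RPKM, on 5 and 2 reads. Neither set overlapped, and the means differed in opposite directions inside 1 host gene. Both loci reached the floor only through the group where they were higher, which favours such a separation. Their log2 fold changes were −1.24 ± 0.26 and 0.91 ± 0.21 (SE), with limma adjusted p-values of 0.506 and 0.599. Mirg itself, with a model of 1299 bp, had 3.49, 4.51 and 4.22 RPKM in cKO and 2.82, 2.67 and 3.40 RPKM in control libraries (log2 fold change 0.40, limma adjusted p = 0.775). This was the highest log2 fold change among the hosts tested.

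Other loci that are well known in the retina were low or not seen. Of 60 retinal microRNA loci in a list drawn up for this comparison, 25 were members, 19 had reads under the floor and 16 were at 0. Mir204 and Mir211, known in the pigment epithelium, had 4 reads each over all 6 libraries. The loci at 0 included Mir9-3, Mir125b-1, Mir125b-2, Mir181a-1, Mir22 and all 4 of the miR-29 loci (Mir29a, Mir29b-1, Mir29b-2 and Mir29c). A locus at 0 is one with no counted read in poly(A) RNA, which says nothing of its mature microRNA. Of the 25 members on the list, 13 were higher and 12 lower in cKO, with a median log2 fold change of 0.03.

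Across all members the comparison gave no call. None of the 95 passed a limma adjusted p of 0.05, and the smallest was 0.506. In the same fit 1 of 13663 genes passed, or 0.00732%; it was Prm1. At an unadjusted p under 0.05 there were 21 members, 13 higher and 8 lower in cKO, or 22.1%, against 5.90% of all genes tested (2.68% higher and 3.22% lower). With limma voom on the recovered reads, which weights each value by its count, 9 members (9.47%) had an unadjusted p under 0.05 against 6.07% of all genes, and 0 passed adjustment (smallest voom adjusted p = 0.734), against 0.0146% of all genes. The share of members with a low unadjusted p thus differed between the fits. In the main fit the variance of each gene is drawn toward that of genes of like RPKM, most of which spread less than the members. The part of this in the members' share was not tested. In 11 members (11.6%) the groups did not overlap, 7 with cKO above and 4 with cKO below, against 11.9% of all genes (5.86% above and 6.07% below), so the members' share was near that of the background. In 20 of the 95 members 1 group's mean lay under 0.5 RPKM, so they reached the floor only through the other group and had to differ. These 20 include 6 of the 11 (Mir17, Mir99b, Mir453, Mir485, Mir1943 and Mir194-1) and 8 of the 21 with a low unadjusted p, and neither count supports a difference.

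The 11 were Mir1968, Mir17, Mir453, Mir191, Mir9-2, Mir99b and Mirlet7a-1 with cKO above, and Mir485, Mir1943, Mir194-1 and Mir331 with cKO below. They rested on 7 to 448 reads, and 7 of the 11 on fewer than 15. Mir191 had 3.31, 1.51 and 2.68 RPKM in cKO and 1.18, 1.04 and 1.33 RPKM in control libraries. Its neighbour Mir425, with which it spans 543 bp in exons of 1 lincRNA, overlapped with 10.6, 10.5 and 4.67 RPKM against 8.20, 6.94 and 7.55 RPKM. Mir331 had 0.850, 2.03 and 2.07 RPKM in cKO and 2.12, 3.21 and 4.11 RPKM in control libraries, and here too the nearest libraries of the groups lay close together. The pooled Poisson intervals of the groups were apart for only 2 members. One was Mir1968, and the other was Mir3057, in Apba3, with 0.448, 0.920 and 2.18 RPKM against 1.91, 4.23 and 2.98 RPKM (pooled 1.02, interval 0.410 to 2.10, against 3.09, interval 2.11 to 4.36). Its log2 fold change of −1.15 ± 0.38 did not pass (limma adjusted p = 0.809). Mir3057 was named for these intervals after its values were seen.

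The other 10 members with an unadjusted p under 0.05 had groups that overlapped, and apart from Mir3060 and Mirlet7g they are named for that p after their values were seen. Mir324, in an exon of the Wnt signalling gene Dvl2, was the best covered, at 7.79, 8.78 and 6.68 RPKM in cKO and 7.18, 3.17 and 4.44 RPKM in control libraries, on 103 reads in all. Its first control library lay inside the cKO range (log2 fold change 0.66 ± 0.24, limma adjusted p = 0.813). Mir760, Mir697, Mir3091 and Mir140 were also higher on average in cKO, with log2 fold changes of 0.94, 1.09, 1.03 and 0.78 on 27, 25, 14 and 8 reads. Mir670, Mir3057 and Mir199a-1 were lower on average. Mir199a-1 had 0, 0.399 and 0 RPKM in cKO and 1.24, 2.57 and 0.353 RPKM in control libraries, from 1 and 11 reads (limma adjusted p = 0.783). Mir199b, whose 3p strand has the same seed, CAGUAGU, went the other way with 1.48, 0.254 and 0.601 RPKM against 0.528, 0.466 and 0.224 RPKM (log2 fold change 0.40 ± 0.32). Both lie opposite dynamin genes, Dnm2 and Dnm1, so a strandless read there can belong to either gene.

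A separation of the groups took few reads in several members. Mir1943 had 0.559, 0 and 0 RPKM in cKO and 0.796, 1.41 and 0.676 RPKM in control libraries, from 1 and 8 reads. Mir194-1 had 0, 0.416 and 0 RPKM against 0.433, 0.766 and 1.47 RPKM, from 1 and 7 reads. Mir99b had 2.33, 0.797 and 0.944 RPKM against 0, 0.733 and 0.353 RPKM, from 7 and 3 reads. In each of them 1 read more or less in a single library would have closed the gap. The log2 fold changes were −1.15 ± 0.31, −1.12 ± 0.32 and 1.11 ± 0.38 (SE), with limma adjusted p-values of 0.705, 0.737 and 0.809.

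Pairs of hairpins that share a host and lie close together were also compared. Members within 10 kb of each other on 1 strand formed 12 clusters of 32 loci. Mir23b and Mir27b, 301 bp from end to end, summed to 7.06 ± 2.22 RPKM in cKO and 8.02 ± 2.23 RPKM in control retinas, with log2 fold changes of 0.04 and −0.25. Mir3960 and Mir2861, in an exon of the transcription kinase gene Cdk9, summed to 13.0 ± 1.91 against 12.2 ± 5.00 RPKM, with log2 fold changes of 0.19 and 0.07. Mir425 and Mir191 summed to 11.1 ± 3.36 against 8.75 ± 0.708 RPKM. The groups overlapped in all 3 sums.

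The members' differences lay on both sides of 0. Of the 95, 53 (55.8%) had a log2 fold change above 0, against 48.1% of all genes tested. The median was 0.05 against −0.01, and neither difference was tested. Under the replicate block the members' median was −0.03. The range ran from −1.45 (Mir199a-1, on 12 reads) to 1.11 (Mir99b, on 10 reads). Changes over 1 in size occurred in 10 members, all with 5 to 39 reads. Among the 23 members that averaged 10 reads or more, 17 were above 0, against 48.1% of all genes tested. Groups did not overlap in 2 of the 23, against 11.9% of all genes. Neither count was tested. The log2 fold changes of these 23 ran from −0.31 to 0.81. The wide differences were therefore those of the loci with few reads.

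**Figure D3:**
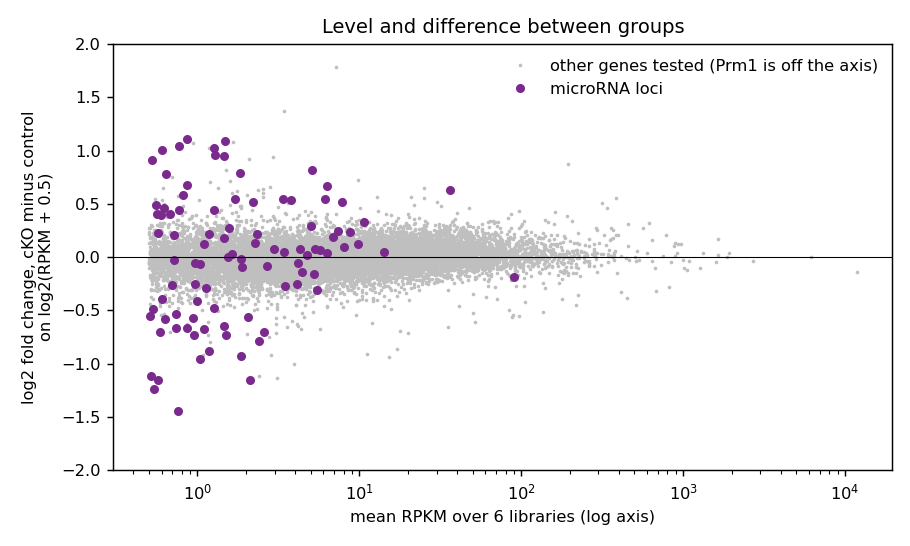
Log2 fold change (cKO minus control, on log2(RPKM + 0.5)) against mean RPKM on a log axis for 95 microRNA loci (purple) and the other genes tested (grey, Prm1 beyond the axis). The microRNA loci spread from −1.45 to 1.11 at the low end, and the 4 loci at or above 10 RPKM lie between −0.19 and 0.63.

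The spread between libraries of a group set what could be seen. The median within-group SD of log2(RPKM + 0.5) was 0.53 for the members and 0.13 for all genes tested. For 1564 genes longer than 1000 bp at or under the members' median RPKM it was also 0.13, so a low RPKM alone did not go with the wide spread; short loci with few reads had it. Members that averaged 10 reads or more had a median SD of 0.35, and the 72 members below that had 0.64. The chi-square of the reads within groups had a median of 1.11 per degree of freedom over the members. It was over 2 in 31 members and highest in Mir3064, at 9.77, a spread that sampling alone does not describe. Some values over 2 arise from sampling alone, and how many was not worked out. These values also rest on the recovered read numbers, with those of cKO replicate 4 halved.

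**Figure D4:**
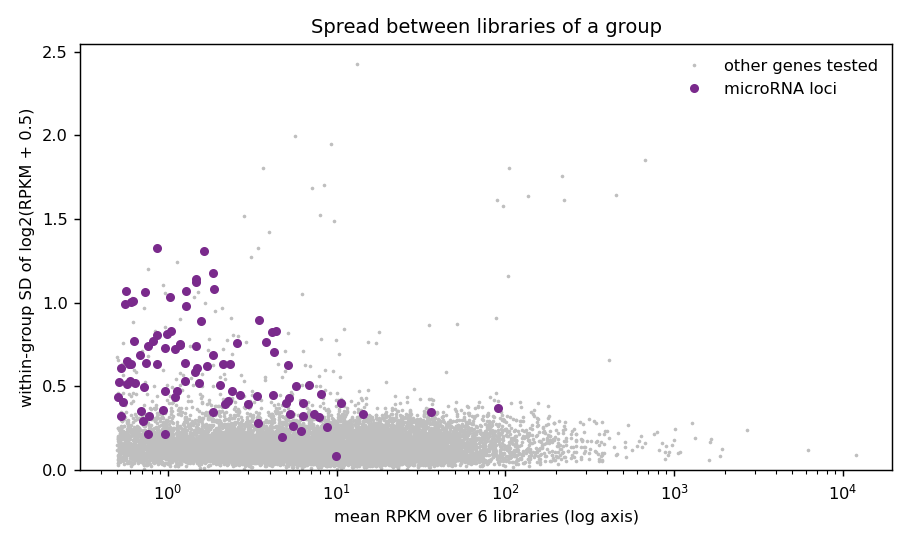
Within-group SD of log2(RPKM + 0.5) against mean RPKM on a log axis for 95 microRNA loci (purple) and the other genes tested (grey). The microRNA loci lie above other genes of the same RPKM, with a median of 0.53 against 0.13 for all genes.

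Where the members lie in the genome differed from where the other microRNA loci lie. Of the 87 members placed on GRCm38 with GENCODE M21, 40 lay wholly in an exon of a gene on the same strand and 9 partly so, together 56.3%. Among the 143 placed loci with reads under the floor this share was 23.8%, and among the 264 placed loci at 0 it was 18.9%. Introns held 30 members (34.5%). Small RNA genes and entries of unconfirmed class were left aside in this placing. Loci outside any other gene made up 4.60% of the members, against 26.6% and 34.1% of the other loci. These 4 members were Mir182, Mir96, Mir183 and Mir210. The remaining 4 members, Mir378b, Mir703, Mir199a-1 and Mir199b, had a gene only on the opposite strand. These shares describe the annotation and were not tested. Of the 49 exonic members, 26 lay in protein-coding genes, 13 of them in coding transcripts and 13 only in noncoding transcripts of those genes, and 23 lay in noncoding genes or pseudogenes.

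Exonic loci stood nearer to their hosts than intronic loci, as a description. The locus held a median of 35.5% of the host's RPKM for 28 exonic loci (range 4.25% to 681%), 20.0% for 8 partly exonic loci and 12.8% for 27 intronic loci (range 0.384% to 1353%). The lowest intronic share was that of Mir677 in the ATP synthase gene Atp5b, at 2.06 ± 1.93 and 3.09 ± 0.947 RPKM in a host of 646 ± 52.8 and 697 ± 97.6 RPKM. Above their hosts stood 7 loci, Mir1982, Mir9-2, Mir688 and Mir20a in exons and Mir421, Mir99a and Mir344-2 in introns. Mir1982 had 8.11 ± 2.38 and 6.66 ± 1.27 RPKM in an exon of 1 of 7 transcripts of Oaz1, an inhibitor of polyamine synthesis, while the row of Oaz1 read 1.06 ± 0.415 and 1.47 ± 0.417 RPKM. In all, 13 members had a gene on the opposite strand, such as Mir324 with Acadvl.

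**Figure D5:**
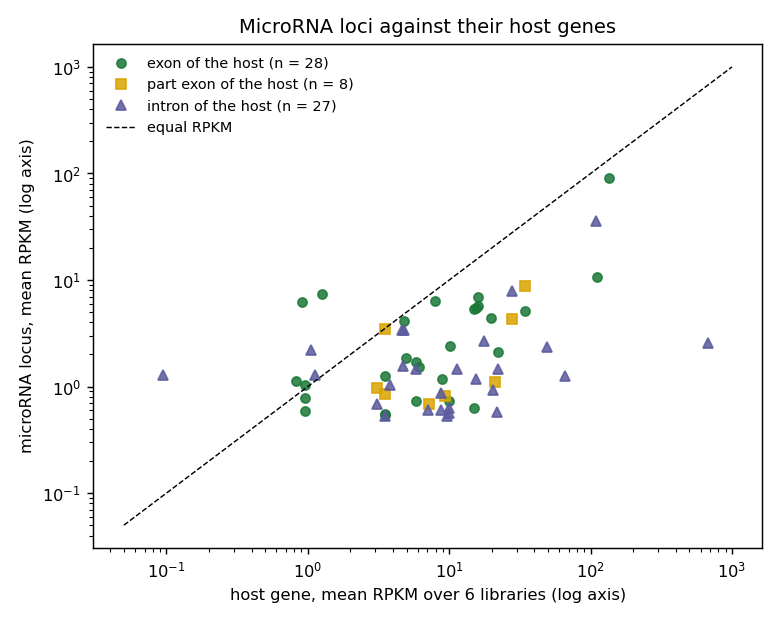
Mean RPKM of each microRNA locus against that of its host gene on the same strand, both on log axes, for loci in exons (28), partly in exons (8) and in introns (27); the dashed line marks equal RPKM. Most loci lie under the line, exonic loci nearer to it, and 7 lie above it.

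Differences between the groups in the hosts were small beside the spread of the loci. For 62 loci in 49 hosts that were both tested, host log2 fold changes ran from −0.34 to 0.40 and 0 hosts passed (smallest limma adjusted p = 0.710). Locus and host had the same sign in 30 of 62 cases. Across these loci Pearson's r was −0.04 for the log2 fold changes and 0.43 for the log2 levels, as a description over loci that share libraries and, in part, hosts. The median within-group SD of the members was 0.53 on the log2 scale. With host differences this small beside it, the signs and the r of −0.04 cannot show whether loci follow their hosts.

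No gene of the microRNA pathway passed the test. Dicer1, the deleted gene, was 8.02, 7.06 and 7.90 RPKM in cKO and 8.48, 8.77 and 8.33 RPKM in control libraries, or 89.9% of the control mean (exact two-sided permutation p = 0.1, the smallest that 3 against 3 libraries allow; limma adjusted p = 0.912). Reads outside the floxed part and from cells other than rods count towards it. Of the 33 pathway genes listed, 32 were tested, 0 passed in either direction, 10 were higher and 22 lower, and the median log2 fold change was −0.02. Drosha had 16.9 ± 0.676 against 17.4 ± 0.947 RPKM, and the exportin gene Xpo5 9.30 ± 1.31 against 8.61 ± 0.718 RPKM. The 4 Argonaute genes, listed as Eif2c1 to Eif2c4, had log2 fold changes between −0.31 and 0.07. The smallest adjusted p, 0.775 by limma, was that of Gemin4, known as a partner of Argonaute in a protein complex, with 3.56, 4.13 and 3.74 RPKM in cKO and 4.54, 5.08 and 4.63 RPKM in control libraries. Unadjusted p-values under 0.05 were found for 3 of the 32, Gemin4, Snd1 and Lin28a, against 5.90% of all genes tested.

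Markers of other cells did not separate the groups at the threshold. Summed rod markers were 22585 to 25043 RPKM in cKO and 23731 to 28268 RPKM in control libraries, and lens markers, from tissue beside the retina, varied from 187 to 2306 RPKM and from 325 to 3024 RPKM within the groups. Bipolar cell markers were 313 to 338 RPKM in cKO and 279 to 292 RPKM in control libraries, with no overlap. Müller glia markers were 1895 to 1940 RPKM in cKO and 1945 to 2152 RPKM in control libraries, also with no overlap but in the other direction. The largest part of the Müller glia sum was Apoe, at 1004 ± 49.9 against 1097 ± 101 RPKM (SD). By gene, 5 of the 6 bipolar markers and 2 of the 6 Müller glia markers, Glul and Rlbp1, were higher on average in cKO. In both lists 0 of the 6 genes passed. The part of these differences in the values of the microRNA loci was not tested. The globin genes Hbb-b1, Hbb-b2, Hba-a1 and Hba-a2 were listed at 0 in all libraries.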

How the data were processed

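RNA sequencing measured poly(A) RNA of 3 cKO and 3 control retinal pools. Per the labels' protocols, cDNA was made from it with random primers and an ordinary second strand, so strand is lost. The authors deposited 1 table of RPKM per gene and library, with 5 decimals. The tools named in the submitters' processing notes are GSNAP and HTSeq, with the build mm9. The annotation behind the table is not stated in these sources, nor is the handling of reads with several matches. RPKM on a hairpin is coarse, since 1 read is a large step. All 6 sample columns were used (0 left out).

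Read numbers were recovered from the steps between RPKM values, with the scale set by 124 loci of known RefSeq hairpin length. For cKO replicate 4 only 1.05% of the first set of read numbers were odd, so its denominator was halved. Whether each of its reads had been tallied 2 times cannot be seen from RPKM, so its read numbers, and its place as the shallowest library, rest on this step. Denominators then ran from 15128203 to 40523119 reads. Whole reads were found for all 19140 genes with a value above 0 (100%), to a tolerance of 1e-05 RPKM; since a gene length had to give whole reads to be taken, this is no separate check.

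The main test was limma 3.58.1 (R 4.3.3) with a variance trend on log2(RPKM + 0.5) over 6 libraries. It covered the 13663 genes that averaged 0.5 RPKM or more, was two-sided, and used Benjamini-Hochberg adjustment with a threshold of 0.05. It was tested on simulated data, in which only genes with far more reads than a typical member were changed. That run therefore does not show how well a change in the members would be found. Alternatives were pseudocounts of 0.1 and 1, a filter of 1 RPKM or none, quantile scaling, voom on recovered reads with 2 scalings, a replicate block, and leaving out each library. Limma draws the variance of each gene toward that of genes of like level. The median within-group SD was 0.53 for the members and 0.13 for longer genes at or under their median RPKM. For loci with a wide spread, the SE and p-value are therefore smaller than their own libraries alone would give. Nothing in the labels says whether pools came from separate litters, so the spread between pools that enters the p-values may in part be technical.

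The members and lists were chosen with earlier results of these data known. Named are Dicer1, the 10 members with the highest mean, those whose groups do not overlap, members of the retinal list, loci around the floor, loci sharing a host or cluster with these, their hosts, and the pathway genes with the highest mean and smallest p. Loci were placed with GENCODE M21 and RefSeq on GRCm38, not the authors' build.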

Additional observations from a re-analysis of the deposited data

How the results depend on the processing

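No alternative except the replicate block called a member. The libraries numbered 2 and 3 in both groups allow a block with only 4 libraries. Nothing in the labels ties the numbers. Deviations from group means correlated at 0.43 for number 2 and −0.06 for number 3. Between libraries of different number the correlations ran from −0.51 to 0.45, so these values do not show a pairing by number. With this block 55 genes passed higher and 56 lower, among them 6 and 10 members. Log2 fold changes that changed sign under the block were −0.10 for Mirlet7b, −0.26 for Mirlet7d, −0.37 for Mirlet7e, 0.25 for Mir93 and 0.065 for Mir210; the cause was not tested. With no filter on low values 2 genes passed lower, Mir3062 and Mir466i, each with 1 read in every control library and 0 in every cKO library. Voom called 2 genes higher with either scaling, and gave −0.013 for Mirlet7d. Leaving out each library in turn moved these log2 fold changes through 0: Mir3064 −0.44 to 0.022, Mir682 −0.18 to 0.18, Mir425 −0.094 to 0.45, Mir3960 −0.20 to 0.49, Mirlet7c-2 −0.13 to 0.29, Mirlet7d −0.21 to 0.22, Mirlet7e −0.062 to 0.64, Mirlet7f-1 −0.42 to 0.22, Mirlet7i −0.20 to 0.35, Mir106b −1.38 to 0.023 and Mir210 −0.80 to 0.20. Without a change of sign, Mir132 ran from −1.79 to −0.21, Mir93 from −1.29 to −0.12 and Mir25 from 0.22 to 0.92. In 31 of 41 members named by the rule, leaving out 1 library moved the log2 fold change by over 1.5 times. Of the 41 members, 28 kept their direction under every alternative. The lowest limma adjusted p of these outside the block was 0.0847, for Mir17 without cKO replicate 3. The 28 include the 11 members whose groups did not overlap. Leaving out a library cannot reverse the direction of those 11, so the count does not support a difference in them. The median log2 fold change of the members ran from −0.03 with the block to 0.14. At 23 reads for a typical member, a difference smaller than its counting error cannot be seen.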
